A study of Homo sapiens with 8 samples.

Results

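The 50 genes described here carry or restrain Wnt signalling. They were taken as a fixed list of 19 Wnt ligands, 10 Frizzled receptors, 9 secreted antagonists, 4 transcription factors and 8 feedback and core genes, among 19970 protein-coding genes of chromosomes 1 to 22 and X. Accessible regions were assigned to a gene where they overlapped its span or the 10 kb on either side (GENCODE 44, GRCh38). This gave 613 regions of the 285909 found in the whole series. Of these, 19 belong to a pair of neighbouring members at once, at WNT6 and WNT10A, at WNT1 and WNT10B, and at WNT3 and WNT9B, and are counted once in totals.

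The libraries are ATAC-seq of the established human embryonic stem cell line RUES2 during cardiac differentiation in a monolayer, with 2 libraries per stage. In ATAC-seq a transposase, Tn5, places sequencing adapters wherever chromatin is open. The stages are hESC (day 0), mesoderm (MES, day 2), cardiac progenitor (CP, day 5) and cardiomyocyte (CM, day 14). The comparison asks how accessibility at the genes of one signalling pathway moved as cells left pluripotency and became cardiac.

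All groups had received the Wnt pathway agonist CHIR-99021, an inhibitor of the kinase GSK3, at 1 µM from day -1, and this includes the hESC group, which was collected before the medium change of day 0. MES cells had then been in 3 µM CHIR-99021 from day 0 in RPMI with albumin and ascorbic acid. CP cells had in addition received 1 µM XAV-939, a tankyrase inhibitor that lowers Wnt signalling, from day 3. CM cells had been without inhibitors since day 5 and in RPMI with B27 from day 7. No stage was collected without CHIR-99021 beforehand, so the stage, the time and the agents cannot be told apart. In these bulk samples, fewer accessible cells and less accessibility per cell cannot be told apart either.

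As background, a Wnt ligand binds a Frizzled receptor and its LRP co-receptor, which stops the complex of AXIN, APC and GSK3 from marking β-catenin (CTNNB1) for destruction. β-catenin then acts with the TCF and LEF factors on target genes, and several of these targets (AXIN2, NKD1, RNF43, ZNRF3, the DKK genes) dampen the pathway again. In cardiac differentiation from pluripotent cells, Wnt signalling is raised first, to form mesoderm, and lowered next, to form cardiac progenitors.

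The values are those of the deposited peak lists. A region is the merged span of overlapping peaks over the 8 lists, and it is called in a library where that library's list holds a peak in it. The fold of a peak is its pileup of insertions over the local background. A region with no call fell short of the threshold of that library and may still be accessible. The lists held 55777 to 156179 peaks per library on the chromosomes used. CM replicate 2 had the fewest, and CM replicate 1 (92731) the next fewest. Marker promoters were read as a check of the labels. The NANOG promoter was called in the 4 hESC and MES libraries and in none of the other 4, that of TTN in the 4 CP and CM libraries and in hESC replicate 2, and those of NPPA and MYBPC3 in CM replicate 1 alone. All 5 mesoderm markers had a called promoter in every library, so they do not separate MES from the other stages, and the promoters of POU5F1 and MYH7 were called in none. The promoters of ZFP42, TNNT2, ACTN2, ISL1, HAND1, NKX2-5 and MEF2C were also called in every library. For ACTN2 the fold was higher in hESC (9.22 and 8.49) than in CM (6.99 and 7.26). LIN28B lacked a call in CM replicate 2 alone, DPPA4 in CM replicate 1 alone and GATA4 in hESC replicate 1 alone. MYH6 was called in CP replicate 2 and CM, MYL4 in MES replicate 1, CP and CM, and TBX5 in MES replicate 2 and CM. Of 4 endothelial, 4 stromal, 4 endoderm and 3 neural markers, 0 to 2, 2 to 3, 1 to 2 and 3 promoters were called per library. The part of such cells in the results was not tested.

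The sequences below are of regions picked as examples after their values were seen. The first 5 were gained at MES and hold the letters CTTTGA or their reverse complement TCAAAG, the core of TCF and LEF sites. The next 2 are the LEF1 introns whose fold fell, and the last was called at CM alone. Each is the 200 bases centred on the summit, from GRCh38, plus strand. Capitals mark the letters searched for on both strands, which were CTTTGA for TCF and LEF factors and AGATAA for GATA factors. TCACACC was searched for T-box factors and ATGCAAA for the octamer bound by POU factors. TNAAGTG stood for NKX factors and GGAATG for TEAD factors.
LGR5, 104 kb downstream of the start, chr12:71543623-71543822: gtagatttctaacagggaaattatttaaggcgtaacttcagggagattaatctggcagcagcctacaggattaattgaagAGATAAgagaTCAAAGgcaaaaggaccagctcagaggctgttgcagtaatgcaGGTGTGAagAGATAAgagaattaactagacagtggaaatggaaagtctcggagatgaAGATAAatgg
ZNRF3, 59.8 kb downstream of the start, chr22:28943230-28943429: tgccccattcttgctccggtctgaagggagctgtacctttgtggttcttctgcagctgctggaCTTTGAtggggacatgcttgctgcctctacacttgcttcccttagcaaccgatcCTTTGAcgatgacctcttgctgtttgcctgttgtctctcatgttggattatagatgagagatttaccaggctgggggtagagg
FRZB, 42 kb downstream of the start, chr2:182824497-182824696: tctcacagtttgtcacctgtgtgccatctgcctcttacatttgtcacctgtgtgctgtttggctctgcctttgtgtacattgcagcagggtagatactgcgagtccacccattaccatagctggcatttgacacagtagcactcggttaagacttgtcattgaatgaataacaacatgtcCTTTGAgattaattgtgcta
TCF7L1, 118 kb downstream of the start, chr2:85250864-85251063: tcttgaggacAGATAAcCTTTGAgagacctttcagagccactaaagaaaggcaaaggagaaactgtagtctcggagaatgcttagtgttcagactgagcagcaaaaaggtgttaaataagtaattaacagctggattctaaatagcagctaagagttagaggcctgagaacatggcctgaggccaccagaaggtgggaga
WNT3A, 57.6 kb downstream of the start, chr1:228064514-228064713: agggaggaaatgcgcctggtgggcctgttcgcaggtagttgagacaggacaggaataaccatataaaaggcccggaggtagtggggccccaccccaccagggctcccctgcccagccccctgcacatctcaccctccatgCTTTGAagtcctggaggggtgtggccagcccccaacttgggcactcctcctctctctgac
LEF1, 7.85 kb downstream of the start, chr4:108160982-108161181: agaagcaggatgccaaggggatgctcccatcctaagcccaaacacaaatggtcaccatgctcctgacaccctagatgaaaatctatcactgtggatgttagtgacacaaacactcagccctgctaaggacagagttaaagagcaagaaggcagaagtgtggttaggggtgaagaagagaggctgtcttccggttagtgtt
LEF1, 33.3 kb downstream of the start, chr4:108135574-108135773: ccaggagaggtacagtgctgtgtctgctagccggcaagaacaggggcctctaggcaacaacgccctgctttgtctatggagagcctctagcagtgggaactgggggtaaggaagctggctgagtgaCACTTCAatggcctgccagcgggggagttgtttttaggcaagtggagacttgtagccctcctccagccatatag
CTNNB1, 66.6 kb downstream of the start, chr3:41265983-41266182: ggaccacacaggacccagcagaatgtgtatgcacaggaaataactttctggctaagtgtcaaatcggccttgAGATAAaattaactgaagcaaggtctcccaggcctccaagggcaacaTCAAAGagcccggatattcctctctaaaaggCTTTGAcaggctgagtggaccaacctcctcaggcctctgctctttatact

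The LGR5 sequence held 1 TCF/LEF match at position 91, counted from 1 at its 5′ end, with 3 GATA matches and 1 T-box match in the same 200 bases. ZNRF3 held 2 TCF/LEF matches. Over all 613 regions, 80 (13.1%) held the TCF/LEF letters, against 11.8% of all 285909 regions. Among the 52 regions gained at MES the share was 15.4%, against 15.2% of all regions gained there. GATA letters stood in 13.5% of the Wnt regions gained at MES and in 26.9% of all regions gained there. A match describes letters only. Of the 8 gained Wnt regions with TCF/LEF letters, 5 are printed.

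Per library, 159 to 356 of the 613 regions were called (237 and 332 in hESC, 273 and 356 in MES, then 248 and 278 in CP, 244 and 159 in CM). The count broadly followed the length of the lists. The order differed for hESC replicate 1 (103118 peaks), which held fewer Wnt regions than CP replicate 1 (99789) and CM replicate 1 (92731). Per 1000 called regions of the same library the count was 2.40 and 2.19 in hESC, 2.62 and 2.35 in MES, then 2.59 and 2.40 in CP, with 2.74 and 2.99 in CM. The CM pair was thus the highest on this scale, in the libraries with the fewest peaks. Replicates shared 136 to 240 Wnt regions per stage, or 50.9% to 61.7% of those called in either replicate, against 42.3% to 54.0% over all regions. Of the 613 regions, 93 (15.2%) were called in all 8 libraries and 206 (33.6%) in 1 library, against 9.83% and 40.7% of all regions.

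**Figure D1:**
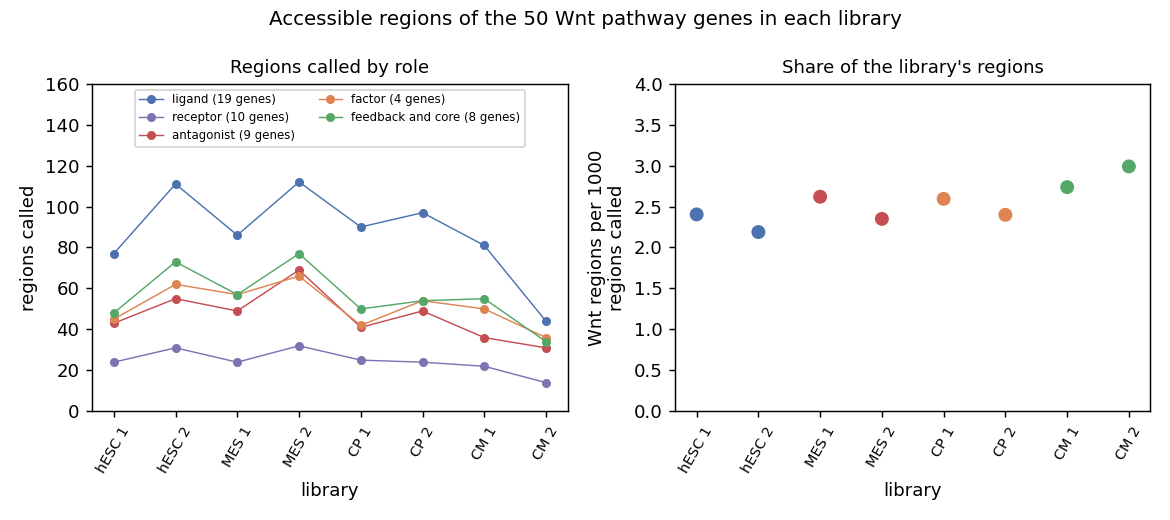
Left, number of regions called in each library (vertical axis) for the 5 roles. Right, Wnt regions per 1000 regions called in the same library. Every role is highest in MES replicate 2 and lowest in CM replicate 2 (112 and 44 for ligands), while the share runs from 2.19 to 2.99 per 1000.

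The regions lay mostly away from promoters. Introns held 343 (56.0%) and canonical promoters, within 1 kb of the start of the Ensembl canonical transcript, held 67 (10.9%). Of the 67 promoter regions, 41 (61.2%) were called in all 8 libraries, against 69.2% over the promoter regions of all protein-coding genes. Of the 343 intronic regions, 26 (7.58%) were.

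Promoters of the pathway were accessible already at hESC. Between 42 and 49 of the 50 genes had a called promoter region in a given library (84.0% to 98.0%), against 70.2% to 79.3% of all protein-coding genes. For 40 genes a promoter region was called in all 8 libraries, and for WNT8B in none. All 10 Frizzled promoters, those of LEF1, TCF7, TCF7L1 and TCF7L2, and those of all 8 feedback and core genes were among the 40. The other 10 were 9 ligands and the antagonist DKK4. The highest was RNF43, a ubiquitin ligase that removes Frizzled from the membrane, at 13.1 and 16.1 in hESC, 13.9 and 13.8 in MES, then 13.9 and 15.9 in CP, with 13.8 and 13.2 in CM. Its stages overlapped. The promoter of CTNNB1, which encodes β-catenin, stood between 6.29 and 7.41 in all libraries.

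**Figure D2:**
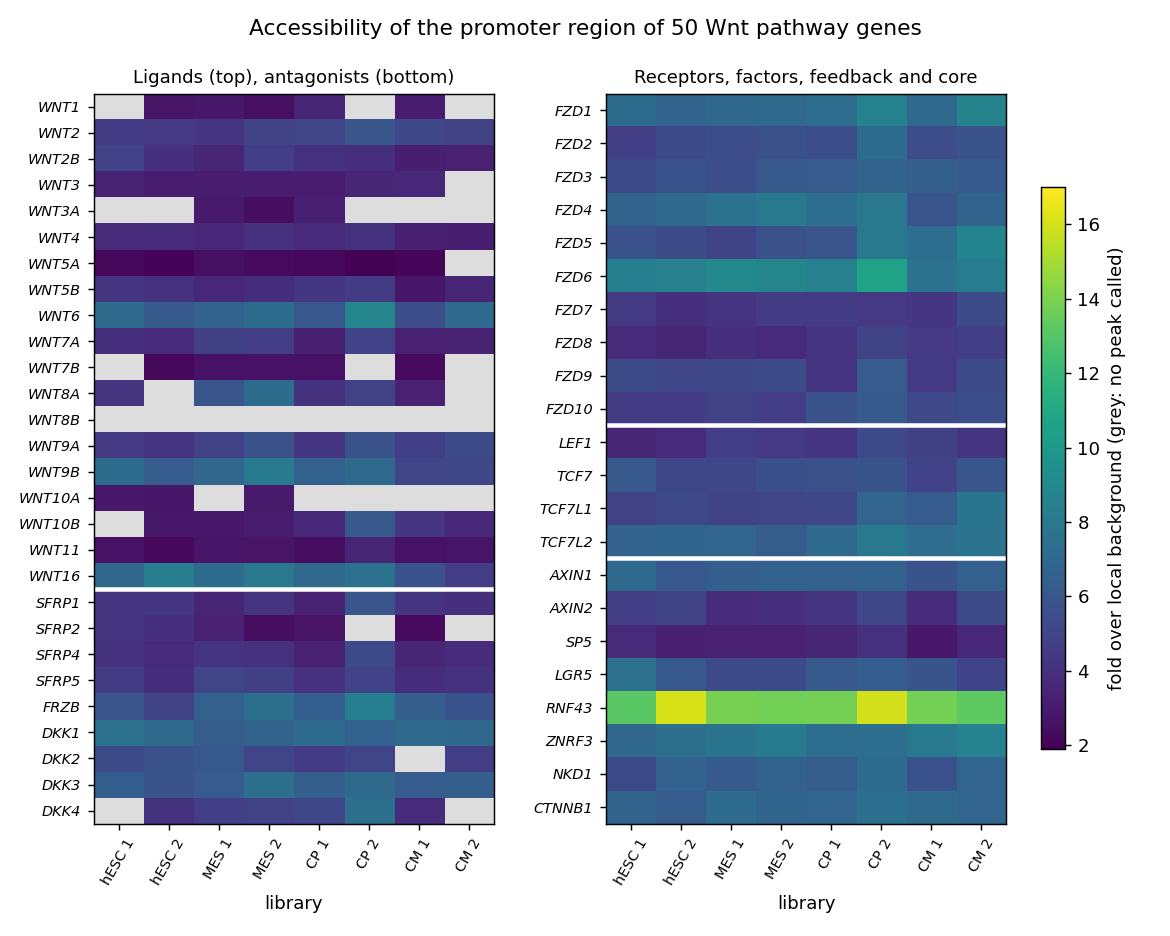
Fold of the strongest promoter region of each gene (rows) in each library (columns), with grey where no peak was called; white lines divide the roles. Receptors, factors and feedback genes are coloured in all 8 libraries, and grey cells stand at ligands and antagonists; SFRP2 and DKK2 each had a weaker promoter region called in all 8.

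The change of fold was tested with limma over the 28115 regions called in all 8 libraries, and Benjamini-Hochberg adjusted over all of them; 93 of the 613 Wnt regions are among these. In the text, a region passed where the adjusted p was below 0.05. In MES against hESC, 0 of the 93 passed (12 had an unadjusted p below 0.05), against 0.893% of all regions. In CP against MES 1 passed, against 0.43%, and in CM against CP 1, against 2.06%. In CM against hESC 14 passed (15.1% of the 93), against 12.2%. These 14 were 8 higher (6.3% of all regions were higher) and 6 lower (5.95% were lower). The share that passed was thus near that of all regions. The split turned with the scaling, since it was 0 higher and 5 lower without centring the libraries, 2 and 5 after quantile normalization, and 14 and 7 on the pileup over the mean background. Without centring, the median change of all tested regions was -0.12 in CM against hESC, compared with 0.10 with it, -0.21 compared with 0.08 in CM against CP, and 0.09 compared with -0.02 in MES against hESC. With fewer libraries, the CP against MES count was 0 without MES replicate 1, MES replicate 2 or CP replicate 2 (8, 9 and 11 regions at an unadjusted p below 0.05 in limma) and 3 without CP replicate 1, and that of CM against CP 0 without CM replicate 2 (12 at an unadjusted p below 0.05) and 5 without CP replicate 1. The CM against hESC count was 5 without CM replicate 1, 2 without CM replicate 2, 3 without hESC replicate 1, 2 without hESC replicate 2, and 7 without either MES replicate.

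This test leaves out regions that open or close fully. When regions called in at least 2 libraries were tested, with a missing value set at the lowest fold of its library, 407 Wnt regions entered. Of these, 48 passed in MES against hESC (11.8%), 22 in CP against MES (5.41%), 10 in CM against CP (2.46%) and 46 in CM against hESC (11.3%) in limma with Benjamini-Hochberg adjustment. All regions passed at 13.4%, 7.61%, 3.99% and 14.7%. These counts rest on imputed values.

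LEF1, a factor that pairs with β-catenin, lost accessibility at 2 of its introns, at different stages. The first lies 7.85 kb downstream of the start (chr4:108160734-108161263). Its fold was 6.53 and 8.01 in hESC, 8.81 and 11.5 in MES, then 4.27 and 5.58 in CP, with 4.31 and 4.13 in CM. Both MES libraries stood above all others, and both hESC libraries above CP and CM. The fold fell by 1.01 on the log2 scale from MES to CP (SE 0.17, limma, Benjamini-Hochberg adjusted p = 0.0168), and the CM against hESC difference was -0.56 (adjusted p = 0.0437, limma). The MES to CP call was lost without MES replicate 1 (adjusted p = 0.0844), without MES replicate 2 (0.218), without CP replicate 2 (0.0726) and without centring (0.205), all in limma with a drop in each case. That of CM against hESC held under 5 of 15 alternatives.

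The second LEF1 intron lies 33.3 kb downstream of the start (chr4:108135247-108135943). Its fold was 10.2 and 11.9 in hESC, 9.96 and 12.1 in MES, then 9.96 and 10.6 in CP, with 4.90 and 4.74 in CM. The 6 earlier libraries lay close together, and both CM libraries at less than 50% of the lowest of them. The difference was -0.81 on the log2 scale in CM against CP (SE 0.15, limma, Benjamini-Hochberg adjusted p = 0.0104) and -0.97 in CM against hESC (SE 0.15, limma, adjusted p = 0.00106). The first was lost without CM replicate 2 (adjusted p = 0.0830), when only the 4 libraries of CP and CM were fitted (0.0889) and on the pileup over the mean background of the library (0.0503), all in limma. The second passed under all 15 alternatives, with adjusted p-values from 0.000622 to 0.0218. Another intronic region 51.3 kb downstream stood at 7.18 to 11.1 in the 6 earlier libraries and at 4.93 and 4.91 in CM, and did not pass in CM against CP (adjusted p = 0.0736, limma). At the LEF1 promoter the fold was 3.49 and 3.77 in hESC, 4.63 and 4.39 in MES, then 4.23 and 5.25 in CP, with 4.77 and 4.17 in CM. Its hESC libraries were the lowest, and the CM against hESC difference of 0.52 did not pass (adjusted p = 0.0507, limma).

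**Figure D3:**
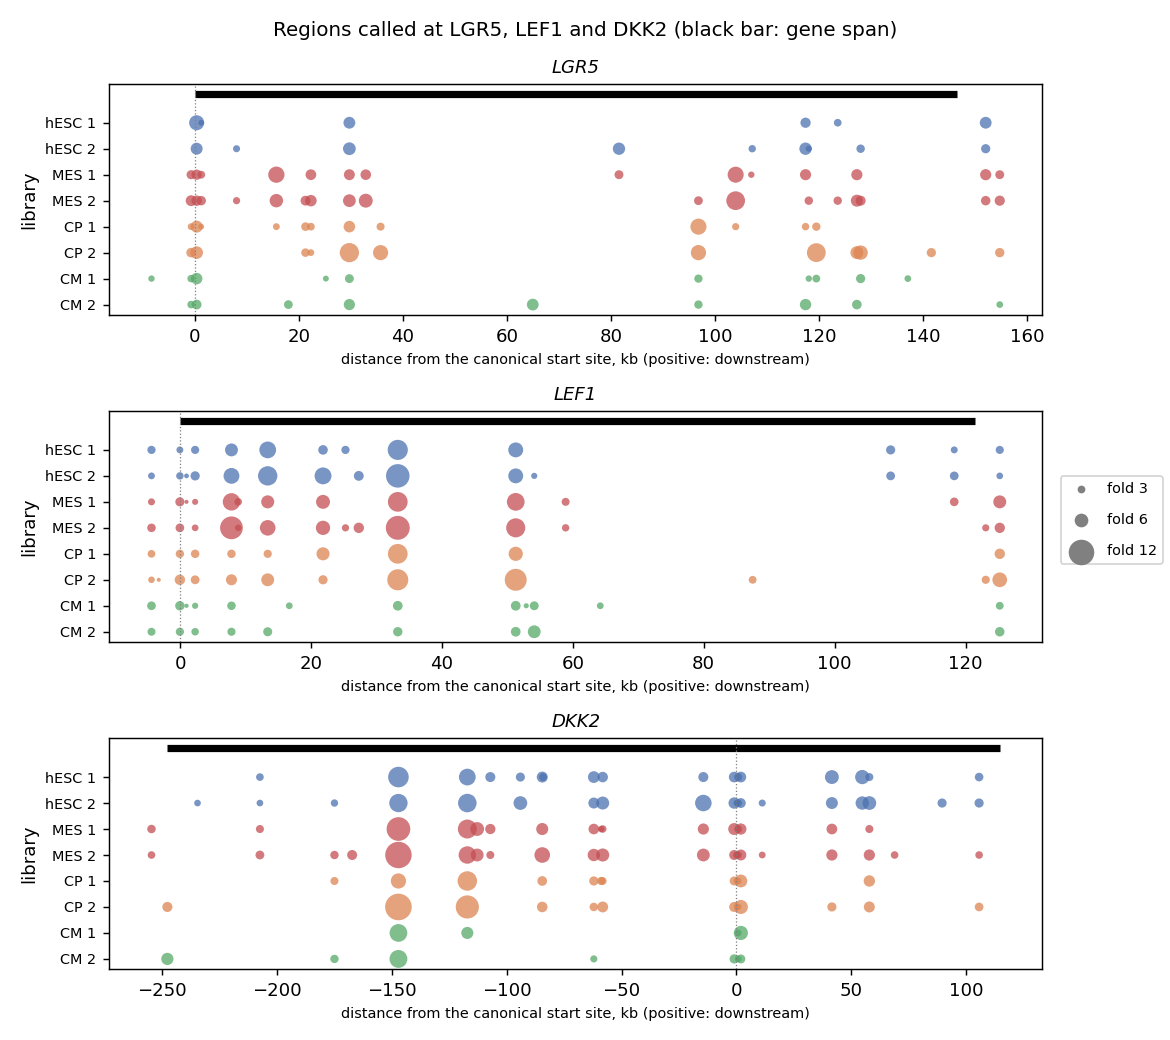
Regions called at LGR5, LEF1 and DKK2 by distance from the canonical start (horizontal axis, kb) and library (rows), with the point area growing with the fold and the gene span as a black bar. LGR5 points multiply from hESC to MES, the largest LEF1 points shrink in CM, and DKK2 goes from 17 and 19 points in hESC to 4 and 7 in CM. The CM libraries had the shortest peak lists.

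Of the other regions that passed in CM against hESC, the lower ones lay at ligands and an antagonist. The region 28.2 kb downstream of the WNT10A start (chr2:218908770-218909562) had folds of 9.77 and 10.7 in hESC, 9.07 and 9.21 in MES, then 6.91 and 8.02 in CP, with 5.13 and 4.00 in CM. Each stage stood below the one before without overlap. The CM against hESC difference was -0.96 on the log2 scale (SE 0.17, limma, Benjamini-Hochberg adjusted p = 0.0029), and passed under all 14 alternatives that could be computed. A region 23.3 kb upstream of the WNT3 start, inside the span of WNT9B, fell from 8.20 and 9.31 in hESC to 5.23 and 4.15 in CM, a log2 difference of -0.69. A region downstream of WNT1 and one in the SFRP4 locus also passed, with differences of -0.54 and -0.49. The last 3 were lost when either hESC replicate or CM replicate 2 was left out, with adjusted p-values in limma between 0.0745 and 0.229.

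The higher ones included 3 promoters. The promoter of FZD5, a Frizzled receptor, had folds of 5.70 and 5.33 in hESC, 4.97 and 5.65 in MES, then 5.89 and 8.00 in CP, with 7.34 and 8.70 in CM. The promoter of TCF7L1, a factor that mostly represses Wnt targets in pluripotent cells, stood at 4.87 and 5.21 in hESC and at 6.30 and 7.72 in CM. The log2 differences were 0.76 (SE 0.16, limma, Benjamini-Hochberg adjusted p = 0.00832) and 0.69 (SE 0.16, adjusted p = 0.0147). At both, the fold before centring was higher in CP replicate 2 than in CP replicate 1. The median log2 fold of the whole library was also higher there (3.05 against 2.72), and the centring removes that offset. The promoter of FZD8 (0.55) and regions at SFRP2 (0.70), NKD1 (0.60), RNF43 (0.59), ZNRF3 (0.58) and WNT5A (0.56) passed with adjusted p-values of 0.0206 to 0.0435 in limma. All 8 stayed higher without centring but none of them passed there, with adjusted p-values of 0.143 to 0.405. None of the 8 passed without CM replicate 2 (0.0528 to 0.213) or without hESC replicate 2 (0.0786 to 0.312). The SFRP2 difference turned to -0.32 on the pileup over the mean background.

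Gain and loss of calls covered all 613 regions. A region was gained where both libraries of the later stage and neither of the earlier one held a call, and lost in the reverse case. In MES against hESC, 52 Wnt regions (8.48%) were gained and 29 (4.73%) lost, against 6.02% and 3.95% of all regions. In CP against MES, 11 (1.79%) were gained and 37 (6.04%) lost, against 2.14% and 6.13%. In CM against CP, 13 (2.12%) were gained and 33 (5.38%) lost, against 1.41% and 6.33%. In CM against hESC, 32 (5.22%) were gained and 71 (11.6%) lost, against 3.15% and 13.5%. The Wnt regions differed from all regions by less than 1 percentage point in 5 of these 8 shares, and by more in the gains of MES and CM against hESC and the losses of CM against hESC.

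The excess of losses over gains of Wnt regions at CM turned with the length of the lists. With the 55777 strongest peaks of each library, the CM against hESC counts turned to 38 gained (13.3%) and 20 lost (7.02%), against 9.08% and 12.0% of all regions, where losses still exceeded gains. Those of CM against CP turned to 15 (5.26%) and 13 (4.56%), against 4.58% and 5.20% of all regions. At MES, 27 (9.47%) were gained and 12 (4.21%) lost on these lists, against 7.36% and 5.98% of all regions, so gains still outnumbered losses there. Leaving out a library loosens the rule, and counts then rise. In MES against hESC gains came to 121 without MES replicate 1, and losses to 98 without hESC replicate 1 and to 46 without MES replicate 2. In CP against MES gains were 67 without CP replicate 1, 28 without CP replicate 2 and 21 without MES replicate 2, and losses 111, 63 and 59 without MES replicate 1, MES replicate 2 and CP replicate 1. In CM against CP gains were 57 without CM replicate 2 (9.30%, 8.90%), 25 without CP replicate 2 (4.08%, 2.83%) and 20 without CM replicate 1 (3.26%, 3.57%). Losses there were 89 without CP replicate 1 (14.5%, 18.4%), 77 without CP replicate 2 (12.6%, 14.1%) and 73 without CM replicate 1 (11.9%, 11.4%). In CM against hESC gains were 82 without CM replicate 2 (13.4%, 11.8%). Losses there were 166 without hESC replicate 1 (27.1%, 33.0%) and 110 without CM replicate 1 (17.9%, 18.3%).

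**Figure D4:**
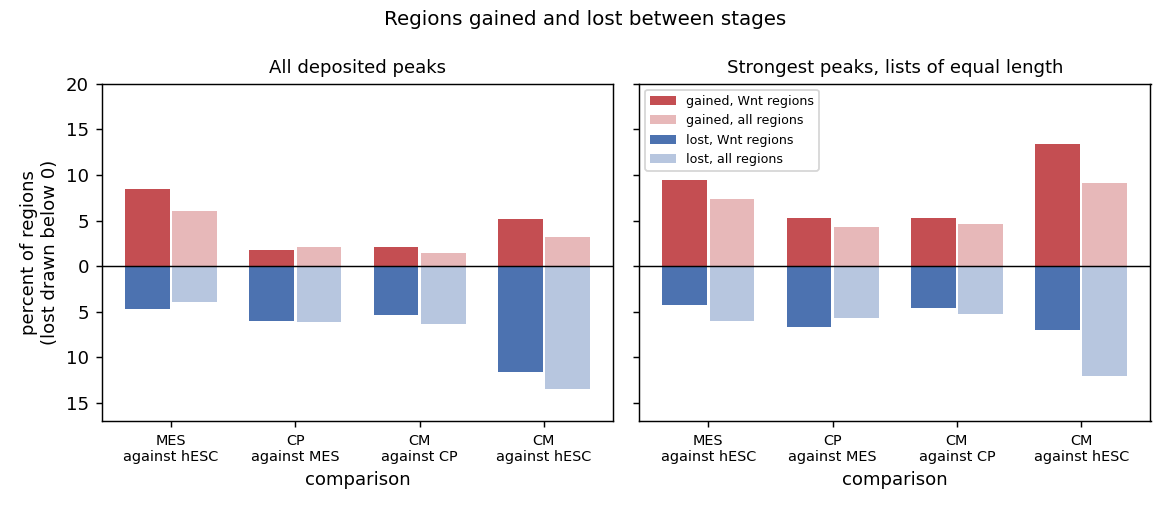
Percent of regions gained (above 0) and lost (below 0) in 4 comparisons, for the Wnt regions (dark) and all regions (light). Left, all deposited peaks, with 52 gained and 29 lost at MES; right, the 55777 strongest peaks of each library, where CM against hESC turns from 32 gained and 71 lost to 38 and 20.

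The 52 regions gained at MES lay at 26 of the 50 genes. By role they were 16 of the 151 regions at feedback and core genes, 12 of 122 at factors and 10 of 97 at antagonists. At ligands they were 10 of 193 and at receptors 4 of 50. Over all regions, 6.02% were gained at MES. The fold of the 52 in MES ran from 2.15 to 9.47, with medians of 4.13 and 4.33 in the replicates. Afterwards, 23 of the 52 had no call in CP or CM and 7 were called in all 4 later libraries. Of the 17214 regions of the whole series gained at MES, 7902 had no later call and 1048 were called in all 4.

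LGR5, which encodes a receptor for R-spondin and is itself a Wnt target, gained 7 regions at MES and lost 0. It had 6 and 9 called regions in hESC, 14 and 17 in MES, then 12 and 12 in CP, with 10 and 9 in CM. The strongest of all 52 lay in its intron 104 kb downstream of the start (chr12:71543282-71544215), with folds of 8.12 and 9.47 in MES, a fold of 3.63 in CP replicate 1 and no call in the other 5 libraries. Its sequence is the first printed above. A second intronic region, 15.7 kb downstream, had the same pattern, with 8.22 and 6.79 in MES and 3.47 in CP replicate 1. Another, 32.8 kb downstream, was called at MES alone, at 5.36 and 7.04. Other LGR5 introns opened later. The one 96.8 kb downstream was not called in hESC and had 4.46 in MES replicate 2, 8.13 and 7.71 in CP, with 4.20 and 4.24 in CM. The one 35.7 kb downstream was called at CP alone, at 4.07 and 7.67. The promoter of LGR5 was called throughout, at 7.61 and 6.04 in hESC and 5.22 and 5.29 in MES. That difference did not pass (log2 difference -0.47, adjusted p = 0.430, limma).

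Among the other feedback and core genes, regions went in both directions at MES. In an AXIN2 intron 30.0 kb downstream of the start, the fold was 3.92 and 4.03 in hESC, 6.54 and 6.86 in MES, then 4.48 and 3.31 in CP, and 3.29 in CM replicate 1. In an NKD1 intron 62.4 kb downstream it was 3.39 and 4.33 in hESC, 6.82 and 6.11 in MES, then 3.50 and 4.34 in CP, and not called in CM. At both, the MES pair stood above every other library. Neither passed in MES against hESC when the 4 libraries of these stages were fitted alone (log2 differences of 0.65 at both, adjusted p = 0.0561 and 0.0833, limma). In that fit 4 of 162 Wnt regions passed, against 4.69% of all regions. NKD1, an inhibitor of Dishevelled, gained 3 regions at MES and lost 4 between hESC and CM, with 7 and 11 regions called in hESC, 8 and 13 in MES, then 5 and 6 in CP, with 2 and 3 in CM. A region 0.679 kb upstream of SP5, a direct Wnt target, was called only in MES (2.47 and 2.54) and CP (2.21 and 3.03). These are low folds for the lists. The region ends at chr2:170714825, next to the SP5 promoter region called in all 8 libraries, which starts at 170714898. Whether the calls differ only in where neighbouring peaks were divided was not tested. The strongest SP5 region in hESC, 8.43 kb downstream of the start, stood at 5.96 and 7.48 there and at 4.32 and 4.49 in MES. It passed as lower in the fit of 4 libraries (-0.71, adjusted p = 0.0498, limma) and not with missing values at the lowest fold (0.285). The AXIN2 promoter stood at 4.64 and 4.99 in hESC and at 3.84 and 3.97 in MES, and did not pass (log2 difference -0.41, adjusted p = 0.497, limma). RNF43 had 9 and 11 regions in hESC and 4 and 7 in MES, and lost 6 regions between hESC and CM. ZNRF3, a ubiquitin ligase of the same function, gained 2 and lost 4 regions at MES, and gained 3 and lost 6 between hESC and CM. Over all regions, 6.02% were gained and 3.95% lost at MES, and 3.15% and 13.5% between hESC and CM. A ZNRF3 intron 59.8 kb downstream of the start had no call in hESC and calls in all 6 later libraries. Its folds were 4.46 and 7.35 in MES, then 4.06 and 8.77 in CP, with 5.76 and 4.11 in CM.

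Among the ligands, WNT3A, known from the primitive streak, gained 4 regions at MES, of which 2 lie at its promoter. The region at the start itself was not called in hESC and had 2.99 and 2.46 in MES and 3.23 in CP replicate 1. The one 1.05 kb upstream was called at MES alone, at 2.22 and 2.85, close to the lowest folds of the lists. At WNT8A, another ligand of early mesoderm, a region 5.68 kb upstream of the start (chr5:138077669-138078796) had folds of 3.92 and 4.04 in hESC, 8.26 and 9.50 in MES, then 6.19 and 5.63 in CP, and 3.75 in CM replicate 1. Its promoter followed, with 4.21 in hESC replicate 1, 5.88 and 7.24 in MES, then 4.11 and 4.86 in CP, and 3.30 in CM replicate 1. A region 11.3 kb downstream of the same start ran the other way, from 7.80 and 6.97 in hESC to 5.07 and 4.66 in MES. In the fit of 4 libraries the upstream region was higher in MES than in hESC (log2 difference 1.05, adjusted p = 0.00634, limma), but not past the threshold with missing values at the lowest fold (0.0727). The downstream one did not pass in either (-0.71, adjusted p = 0.0510 and 0.317, limma). CM replicate 2 had no WNT8A call at all. WNT5A, a ligand of the β-catenin-independent branch, had its strongest region 12.7 kb downstream in hESC (6.28 and 5.62) and MES (5.30 and 6.39), and 1.99 kb downstream in CP (4.59 and 4.49) and CM (3.65 and 4.40). For WNT2 the promoter was the strongest region at every stage, between 4.17 and 5.91. At WNT11, a ligand known from heart formation, an intron 13.1 kb downstream was strongest in hESC (5.28 and 4.75), and the promoter was called in all 8 libraries between 2.27 and 3.44.

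The 10 Frizzled genes, the receptors of Wnt ligands, held 50 regions, of which 4 were gained and 3 lost at MES, and 5 were lost between hESC and CM. Over all regions these shares were 6.02%, 3.95% and 13.5%. A region 39.0 kb downstream of the FZD6 start, outside the gene, was not called in hESC or MES and had folds of 5.40 and 14.1 in CP, with 5.48 and 6.97 in CM. The CP replicates differed widely there. The FZD10 promoter, at 4.53 and 4.56 in hESC, stood at 5.77 and 6.15 in CP and at 5.24 and 5.54 in CM. It did not pass in CM against hESC (log2 difference 0.47, adjusted p = 0.0726, limma). It was the gene's only region called at any stage in both libraries.

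The antagonists bind Wnt ligands (SFRP genes, FRZB) or the LRP co-receptor (DKK1, DKK2, DKK4). DKK2 held 28 regions. It had 17 and 19 called regions in hESC, 16 and 21 in MES, then 12 and 12 in CP, with 4 and 7 in CM. Over all regions, 34.5% and 53.1% were called in hESC and 31.2% and 18.6% in CM, where the lists were the shortest. DKK2 has the longest span of the 50 genes (362005 bp). It lost 8 of its 28 regions between hESC and CM, the highest count, while RNF43 lost 6 of 14. Over all regions 13.5% were lost. An intron 54.7 kb downstream of the DKK2 start, the strongest Wnt region called at hESC alone, had 7.22 and 6.77 in hESC. Another, 113 kb upstream, was called at MES alone, at 7.01 and 6.52. A region 147 kb upstream was called in all 8 libraries, between 7.69 and 13.5. DKK3 had 3 and 3 regions in hESC, 6 and 8 in MES, then 6 and 7 in CP, with 7 and 6 in CM. Its region 9.45 kb upstream of the start had no call in hESC, 3.46 and 4.01 in MES, then 4.29 and 5.43 in CP, with 5.96 and 5.45 in CM. At DKK1, itself a Wnt target, the strongest region in hESC, MES and CP lay 5.87 kb upstream of the start, between 6.76 and 8.90, close to its promoter (6.34 to 7.60 over the 8 libraries), and a region 8.14 kb downstream was called at MES alone (4.00 and 3.88). The DKK4 promoter was called in hESC replicate 2 (4.13), both MES (4.73 and 4.87), both CP (5.14 and 7.47) and CM replicate 1 (3.80). In hESC, MES and CP the strongest SFRP1 region lay 40.5 kb downstream, at 5.81 and 6.03, 7.58 and 9.28, and 5.00 and 4.35. It stood at 3.85 and 3.96 in CM, so both MES libraries had higher folds than all others. It did not pass in MES against hESC (log2 difference 0.40, adjusted p = 0.593, limma). Nor did it in CP against MES (-0.81, adjusted p = 0.0790, limma). The strongest SFRP1 region in CM was the promoter (4.21 and 3.97). For FRZB the promoter was strongest throughout, between 4.99 and 8.45, and SFRP5 stood between 3.66 and 7.77 at a region 12.4 kb downstream.

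The factors held 122 regions, and 12 were gained at MES and 12 lost at CP, against 6.02% and 6.13% of all regions. TCF7L1 gained 5 at MES and lost 5 in CP against MES. Its intron 21.1 kb downstream of the start was the strongest Wnt region called at MES alone, at 5.92 and 8.14. TCF7 had its strongest region in an exon 31.4 kb downstream of the start in hESC (8.02 and 7.17), MES (6.13 and 6.59) and CP (4.41 and 7.60), and at its promoter in CM (4.93 and 5.92). TCF7L2 gained 4, and 2 of these, 70.2 and 178 kb downstream of the start, were called in all 6 later libraries.

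Regions called at 1 stage alone were 21 at hESC (3.43% of the 613, against 3.01% of all regions), 23 at MES (3.75%, against 2.76%), 2 at CP (0.326%, against 0.729%) and 9 at CM (1.47%, against 1.05%). In hESC the 4 strongest lay at DKK2 (the intron above, and 4.60 and 6.94 at 94.0 kb upstream), WNT5B (6.36 and 4.60) and RNF43 (4.98 and 5.88). In MES the 4 strongest were TCF7L1, WNT2B (6.10 and 7.49), DKK2 and LGR5. The 2 at CP lay at LGR5 and FZD3 (4.02 and 3.25). In CM the strongest lay 66.6 kb downstream of the CTNNB1 start, within the neighbouring gene ULK4, at 5.82 and 5.32, and the next at TCF7L1, within TGOLN2, at 5.13 and 5.31. The others of the 4 lay at WNT2, inside the span of a neighbouring gene (5.13 and 4.24), and in a TCF7L1 intron (3.87 and 4.32). On lists of equal length the counts were 6 at hESC (2.11%, against 4.27% of all regions), 15 at MES (5.26%, against 3.24%), 6 at CP (2.11%, against 1.02%) and 13 at CM (4.56%, against 3.91%). Without 1 library the counts rose (in brackets, shares of the Wnt regions and then of all regions). At hESC there were 82 without hESC replicate 1 (13.4%, 14.0%). At MES there were 70 without MES replicate 1 (11.4%, 11.6%) and 40 without MES replicate 2 (6.53%, 5.00%). At CP there were 29 without CP replicate 1 (4.73%, 6.24%) and 14 without CP replicate 2 (2.28%, 4.17%). The CP count was 5 without MES replicate 2 (0.816%, 1.09%) or CM replicate 1 (0.816%, 1.01%). At CM there were 35 without CM replicate 2 (5.71%, 6.36%), 15 without CM replicate 1 (2.45%, 2.69%) and 18 without CP replicate 2 (2.94%, 1.72%).

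A further 43 genes of the pathway (co-receptors, R-spondins, Dishevelled, APC, GSK3, co-repressors and others) held 656 regions outside the 613. Of these, 50 (7.62%) were gained and 25 (3.81%) lost at MES, against 6.02% and 3.95% of all regions. The counts in CP against MES were 12 (1.83%) and 43 (6.55%), against 2.14% and 6.13%. Those of CM against CP were 11 (1.68%) and 37 (5.64%), against 1.41% and 6.33%. Those of CM against hESC were 29 (4.42%) and 84 (12.8%), against 3.15% and 13.5%. In limma with Benjamini-Hochberg adjustment, 4 of the 96 tested regions of these genes were higher and 4 lower in CM than in hESC. Over all tested regions 6.3% were higher and 5.95% lower. In the other 3 comparisons 0 of the 96 passed in limma, with 8, 11 and 18 at an unadjusted p below 0.05 in the order given. All regions passed there at 0.893%, 0.43% and 2.06%.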

How the data were processed

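The authors aligned ATAC-seq reads to hg38 with BWA mem 0.7.13, kept reads of high mapping quality, discarded duplicates (Picard), and ran MACS2 2.1.0 on every library to call peaks; bedtools 2.26.0 is also named. The deposited peak lists hold per peak a fold enrichment over the local background (the ratio used here), −log10 p-values and −log10 q-values, and a display score derived from them that was not used. Read totals are not given in the lists, so depth is shown only by the number of peaks and the pileup, and precision rests on the spread between 2 libraries per stage. The labels do not say whether these came from separate differentiations, so p-values may measure technical spread.

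Peaks of chromosomes 1 to 22 and X that overlapped by at least 1 bp were merged over the 8 lists, and regions were assigned to genes within 10 kb of their span. The log2 fold of regions called in all 8 libraries was centred on each library's median and fitted by stage with limma 3.58.1 in R 4.3.3 (trend and robust variance), Benjamini-Hochberg adjusted over all regions at 0.05. The fit was tested on simulated data. Letters were searched in 200 bp at the summit. Python 3.11.15, pandas 2.3.3 and numpy 2.4.6 were used. The alternatives were no centring, quantile normalization, the pileup over the mean background, other sets of tested regions, lists of equal length, a stricter −log10 q of 5 or more, calls in either library, a replicate block and each library left out. Those on gained and lost regions were chosen after seeing the data.

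Members and gene lists were chosen with earlier results of these data known. Named regions were the promoter of each gene, the 5 largest changes past the threshold in each contrast, the 4 strongest regions called at each stage alone, and the strongest regions of 18 listed genes. Others (the remaining regions past the threshold, the regions gained at MES, and those of DKK2, DKK3, FZD6, TCF7L1, TCF7L2 and ZNRF3) were chosen after their values were seen, as were the 5 regions whose fit over the 4 hESC and MES libraries is given. The doses of the agents are those of the study's methods.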

Additional observations from a re-analysis of the deposited data

How the results depend on the processing

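The number of Wnt regions past the threshold in limma was 6 in MES against hESC on the pileup over the mean background, 4 when the 4 libraries of both stages were fitted alone, and 48 with missing values at the lowest fold. In CP against MES it was 0 without centring (9 at an unadjusted p below 0.05), 5 on the pileup over the mean background, 22 with missing values at the lowest fold, and 0 to 3 with 1 library left out. In CM against CP it was 3 without centring, 5 on the pileup, 10 with missing values at the lowest fold, 0 with the 4 libraries alone (14 at an unadjusted p below 0.05), and 0 to 5 with 1 library left out. In CM against hESC it was 5 without centring, 7 after quantile normalization, 46 with missing values at the lowest fold, and 2 to 16 with 1 library left out. With missing values at the lowest fold, all regions passed at 13.4%, 7.61%, 3.99% and 14.7% in these 4 comparisons in turn. With the 4 libraries of hESC and MES alone, 4.69% of all regions passed. For the other settings no share over all regions is given here, so those counts do not show whether Wnt regions differed from all regions. The SFRP2 region turned to -0.32 in CM against hESC on the pileup over the mean background. Of the alternatives run for single named changes, 139 kept the direction and the side of the threshold, 99 kept the direction only and 1 reversed. The cause of these changes was not tested.

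With a replicate block, 0 regions passed in MES against hESC (12 at an unadjusted p below 0.05 in limma), 2 in CP against MES, 2 in CM against CP and 15 in CM against hESC. The deviations of libraries with the same number correlated at 0.13, 0.13 and 0.19 among hESC, MES and CP, and between -0.12 and 0.00 with CM. No label gives the numbers a shared source, and with 2 libraries per stage a pairing was not established.

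Counting a call in either library of a stage gave 92, 87, 41 and 41 regions at hESC, MES, CP and CM alone, and equal lists gave 6, 15 and 6 at hESC, MES and CP. With 1 library left out the counts at a stage alone ran from 21 to 82 at hESC, 23 to 70 at MES, 2 to 29 at CP and 9 to 35 at CM. The shares of all regions beside the highest of these are given above. Gains and losses with a call in either library were 143 and 112 in MES against hESC, 84 and 137 in CP against MES, 64 and 133 in CM against CP, and 96 and 187 in CM against hESC. These gains were 23.3%, 13.7%, 10.4% and 15.7% of the Wnt regions, against 21.3%, 16.1%, 11.1% and 14.3% of all regions. The losses were 18.3%, 22.3%, 21.7% and 30.5%, against 21.1%, 24.1%, 26.1% and 37.2%. On equal lists the counts were 27 and 12, 15 and 19, 15 and 13, and 38 and 20 in the same order. Those of CP against MES were 5.26% and 6.67%, against 4.24% and 5.69% of all regions. With 1 library left out, gains ran from 57 to 121, 12 to 67, 13 to 57 and 32 to 82, and losses from 32 to 98, 50 to 111, 39 to 89 and 78 to 166. The lowest gains were 9.30%, 1.96%, 2.12% and 5.22% of the Wnt regions, against 6.66%, 2.53%, 1.66% and 3.29% of all regions. The lowest losses were 5.22%, 8.16%, 6.36% and 12.7%, against 4.72%, 9.81%, 7.08% and 14.3%. Shares beside the highest counts are given above. A missing call limits what these counts show, since shorter lists miss weaker regions.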
